A study of Mus musculus with 2 samples.

Results

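The genes described are 10 known targets of the transcription factor p53 among the 32285 genes of the count matrices: Cdkn1a, Mdm2, Bax, Ccng1, Phlda3, Trp53inp1, Zmat3, Bbc3, Perp and Bok. They were chosen by symbol, and Perp and Bok were singled out with their levels in these same cells in view, so differences between the pools or the gates are given as descriptions. The cells were LSK cells, sorted from bone marrow as lineage-negative cells with Sca-1 and c-Kit on their surface. This fraction contains the haematopoietic stem cells (HSCs) along with multipotent progenitors (MPPs), and CITE-seq read RNA and surface antibody tags from the same cells. The chelator pool came from mice given the iron chelator deferoxamine at 50 mg/kg. The control pool came from mice given the vehicle HBSS. Both were dosed daily for 7 days in every 4 weeks over 13 months, beginning at about 6 months of age. Each condition had 1 pool, loaded together with the other; how many mice stood behind a pool, and their strain, is not given in the labels. No difference could therefore be tested across animals, and every 95% interval covers counting error only.

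p53, encoded by Trp53, is held low by the ubiquitin ligase MDM2 and accumulates after DNA damage and other stress, when it binds paired copies of a short DNA motif near its target genes. Its targets include brakes on the cell cycle, genes of mitochondrial cell death, and Mdm2 itself, which closes a feedback loop. In HSCs, p53 is known for maintaining quiescence and for limiting survival after irradiation. Of the genes described, Cdkn1a encodes the cyclin-dependent kinase inhibitor p21, Ccng1 encodes cyclin G1, and Phlda3 encodes a small inhibitor of AKT. Trp53inp1 encodes a stress protein that acts with p53, and Zmat3 encodes an RNA-binding zinc-finger protein. Bax and Bok encode effectors of the BCL2 family that open the outer mitochondrial membrane, although Bok is less firmly placed among p53 targets. Bbc3 encodes PUMA, a BH3-only activator of BAX, and Perp encodes a membrane protein related to PMP22 that is part of desmosomes in epithelia.

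RefSeq promoter sequences of GRCm38.p6, from 250 bases before to 50 bases after a gene's start, were at hand for 7 of the 10 genes and were searched for the decamer consensus of the p53 response element on both strands; the motif is its own reverse complement. A match lay in the promoters of 4 of these 7 genes (57.1%), against 9.55% of the 27025 genes with a promoter in the table. The stretches that hold the matches are shown because they are where the motif lies in these promoters, with the matched decamer in capitals. A full response element holds a pair of decamers, and single decamers were searched. Cdkn1a had a pair of matches in neighbouring windows of chromosome 17 (+ strand), at chr17:29090896-29090925 and chr17:29090918-29090947. The windows of the others lie on the - strand at chr10:117710925-117710954 (Mdm2), chr7:45467080-45467109 (Bax) and chr11:40755452-40755481 (Ccng1).
Cdkn1a, upstream: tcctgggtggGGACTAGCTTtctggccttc
Cdkn1a, downstream: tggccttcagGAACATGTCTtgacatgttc
Mdm2: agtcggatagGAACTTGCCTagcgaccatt
Bax: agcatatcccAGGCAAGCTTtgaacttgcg
Ccng1: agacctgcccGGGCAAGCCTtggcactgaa
Phlda3, Bbc3 and Bok had no match in these windows, and Trp53inp1, Zmat3 and Perp were not searched. A match is a description of the reference sequence and no measurement of binding.

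After filtering, 3998 chelator and 3969 control cells were kept, with 66508812 and 63240358 gene UMIs (unique molecular identifiers, each counting 1 captured RNA molecule). Median depth was 14456 UMIs per chelator cell and 13705 per control cell, and no barcode occurred in both pools. The sort genes Kit and Ly6a were present at summed levels of 438 and 444 CPM (counts scaled to the gene UMIs of each pool). Of 15 markers of mature or other cells, 6 lay below 1 CPM in both pools and none was at 0 in both. Their sum was 212 CPM in the chelator pool and 422 CPM in the control pool, with the haemoglobin gene Hbb-bs at 13.3 and 190 CPM. Of the surface-tag gates described below, the control MPP4 gate held it at the highest level, 461 CPM, against 12.6 CPM in the control HSC gate. Both pools held cells of both sexes: cells with Xist, the RNA that silences an X chromosome in female cells, made up 26.1% (24.6 to 27.6) of sexed chelator cells and 42.1% (40.4 to 43.7) of sexed control cells. Cells with an S-phase or G2/M-phase score above 0 made up 46.3% of chelator and 43.1% of control cells. The part of sex and of cycle in the pooled values was looked at by repeating them within each sex and each cycle class.

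Each cell was placed by its CD135, CD48 and CD150 tags. The HSC gate (CD150 alone) held 1311 chelator and 1162 control cells, and the MPP1 gate (all 3 tags negative) 566 and 549. The MPP2 gate (CD48 and CD150) held 101 and 92, and the MPP3 gate (CD48 alone) 614 and 503. The MPP4 gate (CD135 without CD150), where lymphoid-biased progenitors lie, held 1286 and 1508. Among the markers, Dntt and Procr differed between the HSC and MPP4 gates as the gate names say. In the HSC gates of the chelator and control pools, the lymphoid gene Dntt stood at 2.22 and 1.94 CPM. In their MPP4 gates it stood at 473 and 396 CPM. The HSC gene Procr stood at 157 and 181 CPM in the HSC gates and at 30.3 and 40.2 CPM in the MPP4 gates. Not every marker did so. The HSC gene Hlf was higher in the MPP1 gates (477 and 475 CPM) than in the HSC gates (357 and 387 CPM). The granulocyte-monocyte gene Prtn3 stood at 679 and 654 CPM in the HSC gates and at 783 and 743 CPM in the MPP3 gates. Gates cut a continuous signal: for CD135, 22.2% of all cells had a tag signal within 0.25 of the threshold.

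The 10 genes did not share a pattern over the gates. With a fold of at least 1.5 the same way in both pools and at least 100 UMIs in each, 2 of the 10 genes, Perp and Zmat3, were higher in the HSC gate than in the MPP4 gate, and 1, Cdkn1a, was lower; over all 11768 genes measured, 14.7% were higher and 9.99% lower. On 10 genes these counts are near the shares of all genes. The other 7 lay inside that fold in at least 1 pool.

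Perp had the largest HSC-to-MPP4 ratio of the 10 genes. In the chelator pool it reached 8.61 CPM in the HSC gate (167 UMIs), against 1.16 CPM in the MPP4 gate (27 UMIs), a log2 ratio of 2.89 (2.30 to 3.54). In the control pool it reached 5.27 CPM in the HSC gate (87 UMIs), against 1.15 CPM in the MPP4 gate (29 UMIs), a log2 ratio of 2.20 (1.58 to 2.86). The MPP1, MPP2 and MPP3 gates lay between, at 2.88, 2.58 and 2.65 CPM in the chelator pool and 2.52, 2.36 and 3.03 CPM in the control pool, and their counting intervals overlapped one another. The HSC gate interval lay above all of these in the chelator pool; in the control pool it still met those of the small MPP2 gate and, narrowly, of the MPP3 gate. Zmat3 was sparse, with 66 and 60 UMIs in the HSC gates of the chelator and control pools. It stood at 3.40 CPM in the HSC gate and 1.76 CPM in the MPP4 gate of the chelator pool, and 3.64 and 1.82 CPM in those of the control pool, 1.93-fold and 1.99-fold higher in the HSC gate. The Zmat3 locus overlaps 4930429B21Rik in the annotation, so reads from the shared stretch are uncertain.

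Cdkn1a ran the other way. It stood at 14.0 CPM in the HSC gate and 29.9 CPM in the MPP4 gate of the chelator pool, and at 11.1 and 25.1 CPM in those of the control pool, log2 ratios of -1.10 (-1.30 to -0.89) and -1.18 (-1.42 to -0.94). In both pools MPP1 was lowest, at 9.68 and 6.86 CPM, MPP3 was next to highest, at 22.9 and 18.0 CPM, and MPP4 was highest. The HSC and MPP2 gates lay between them and did not differ beyond their counting intervals. Cells with a cycle score above 0, described further on, made up 22.5% and 21.2% of the HSC gate and 60.2% and 54.8% of the MPP4 gate, and their part in the gate difference was not tested.

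The remaining genes were flatter. Ccng1 stood at 71.3 and 49.2 CPM in the HSC and MPP4 gates of the chelator pool and at 74.8 and 50.4 CPM in those of the control pool, inside the fold. Bok leaned towards MPP4, with log2 ratios of -0.53 (-0.90 to -0.16) and -0.57 (-1.06 to -0.10) in the chelator and control pools. Phlda3 leaned the same way, at -0.87 (-1.30 to -0.45) and -0.36 (-0.78 to 0.056), and Trp53inp1 slightly so, at -0.34 and -0.22. Mdm2 (0.24 and 0.13), Bax (0.050 and 0.082) and Bbc3 (0.31 and 0.24) differed least or leaned slightly to the HSC gate. Mdm2, the gene of the feedback loop, ranged over the 5 gates from 41.2 to 49.4 CPM in the chelator pool and from 42.0 to 49.1 CPM in the control pool. Bax was highest in the small MPP2 gate, at 108 and 111 CPM, where its interval lay above that of the MPP4 gate in both pools.

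**Figure D1:**
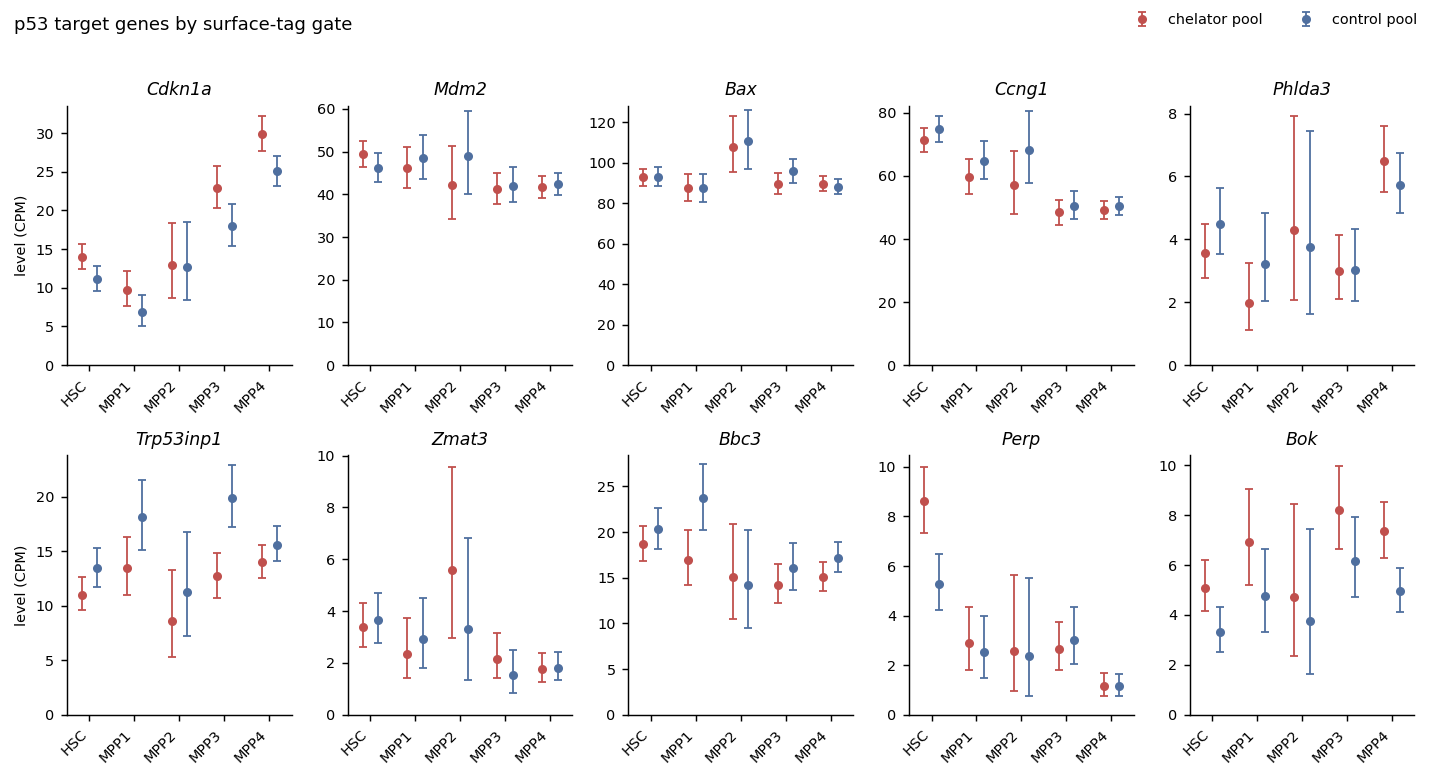
Level (CPM) of each gene in the 5 surface-tag gates, with the chelator pool left of the control pool; points are the sum over all cells of a gate and bars are exact Poisson 95% intervals. Perp is highest in the HSC gate (8.61 and 5.27 CPM) and Cdkn1a in the MPP4 gate (29.9 and 25.1 CPM). Mdm2 is nearly level, and Bax is highest in the small MPP2 gate (108 and 111 CPM).

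Between the pools, most of the genes differed little and Bok and Perp stood apart. In all LSK cells, 2 of the 10 genes were at least 25% higher in the chelator pool and 0 were at least 20% lower, where 1.41% of the 12513 genes with at least 200 UMIs were that much higher and 1.61% that much lower. Both genes were singled out with these values in view. The median log2 ratio of the 10 genes was -0.0056, against -0.0025 for all genes measured.

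Bok was counted 437 times in the chelator pool (6.57 CPM) and 289 times in the control pool (4.57 CPM), 1.44-fold higher (1.24 to 1.67). It was above its control level in each of the 5 gates: 5.10 against 3.33 CPM in the HSC gate, 6.94 against 4.76 in MPP1, 4.73 against 3.77 in MPP2, 8.20 against 6.16 in MPP3 and 7.35 against 4.95 in MPP4. The counting interval of the log2 ratio lay above 0 in the HSC gate (0.61, 0.13 to 1.12) and the MPP4 gate (0.57, 0.23 to 0.91) and included 0 in the MPP1, MPP2 and MPP3 gates. In the MPP4 gate the ratio was 0.81 in cells with Y-linked transcripts and -0.26 in cells with Xist, and that difference was not tested.

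Perp was counted 266 times in the chelator pool (4.00 CPM) and 181 times in the control pool (2.86 CPM), 1.40-fold higher (95% interval of the log2 ratio 0.20 to 0.76). In the HSC gate it stood at 8.61 CPM in the chelator pool and 5.27 CPM in the control pool, a log2 ratio of 0.71 (0.33 to 1.10). There the ratio was 0.23 with each cell thinned to 5000 UMIs and 0.28 in cells with a cycle score above 0, against 0.82 in the other cells. In the MPP4 gate its levels were 1.16 and 1.15 CPM, a log2 ratio of 0.015 whose interval, -0.80 to 0.82, reaches past the value in the HSC gate, so a difference between these gates was not detectable at this depth. In all LSK cells thinning left 84 chelator and 73 control UMIs of Perp and a log2 ratio of 0.18, inside the window. The HSC gate also made up more of the chelator pool, 32.8% (31.3 to 34.3) against 29.3% (27.9 to 30.7) of the control pool.

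Cdkn1a was 1.18-fold higher in the chelator pool over all LSK cells, at 20.6 and 17.4 CPM, inside the window of 20% lower to 25% higher. Trp53inp1 was lower, at 12.5 CPM in the chelator pool and 15.6 CPM in the control pool (log2 -0.31, -0.45 to -0.18), and so was Bbc3 at 16.2 and 18.6 CPM (-0.20, -0.32 to -0.083), both inside the window. Mdm2 stood at 44.3 and 44.4 CPM, Bax at 91.2 and 91.8 CPM, Ccng1 at 57.7 and 59.6 CPM, Phlda3 at 4.35 and 4.55 CPM and Zmat3 at 2.56 and 2.48 CPM. The counting intervals of all 5 log2 ratios included 0, and those of Mdm2 (-0.077 to 0.073), Bax (-0.061 to 0.043) and Ccng1 (-0.11 to 0.019) were narrow.

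Within the gates, on fewer UMIs, genes in general passed the window more often than in all LSK cells. In the HSC gate 4 of the 10 genes passed it, where 5.40% of all genes did: Perp, Bok and Cdkn1a (14.0 and 11.1 CPM, log2 0.33) were higher in the chelator pool and Phlda3 (3.56 and 4.48 CPM, -0.33, -0.83 to 0.16) was lower. The sign of Phlda3 turned with the make-up of the cells, to 0.62 in cells with Xist and 0.12 with both sexes weighted equally. In the MPP1 gate 3 of the 6 genes with at least 100 UMIs passed it, against 9.64% of all genes: Cdkn1a (9.68 and 6.86 CPM) was higher, and Trp53inp1 (13.5 and 18.1 CPM) and Bbc3 (17.0 and 23.7 CPM) were lower. There Cdkn1a stood at -0.12 in cells with Xist and Trp53inp1 at 0.063 in cells with Y-linked transcripts. In the MPP2 gate 0 of 3 passed, against 14.2%. In the MPP3 gate 3 of 7 passed, against 8.15%: Cdkn1a (22.9 and 18.0 CPM) and Bok were higher and Trp53inp1 (12.7 and 19.9 CPM) was lower. In the MPP4 gate Bok alone of 8 passed, against 4.94%.

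Cdkn1a was on the higher side in all 5 gates, with log2 ratios from 0.019 in the MPP2 gate, where few UMIs were counted, to 0.50 in the MPP1 gate. Trp53inp1 was on the lower side in all 5, from -0.16 in the MPP4 gate to -0.65 (-0.97 to -0.34) in the MPP3 gate. A few cells weigh on that last value: the richest control cells held 27 and 24 Trp53inp1 UMIs, 5.17% of the control total together, and without the 2 richest cells of each pool the MPP3 ratio was -0.36. Among MPP3 cells with a cycle score above 0 it was 0.21, at 9.36 and 8.11 CPM.

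**Figure D2:**
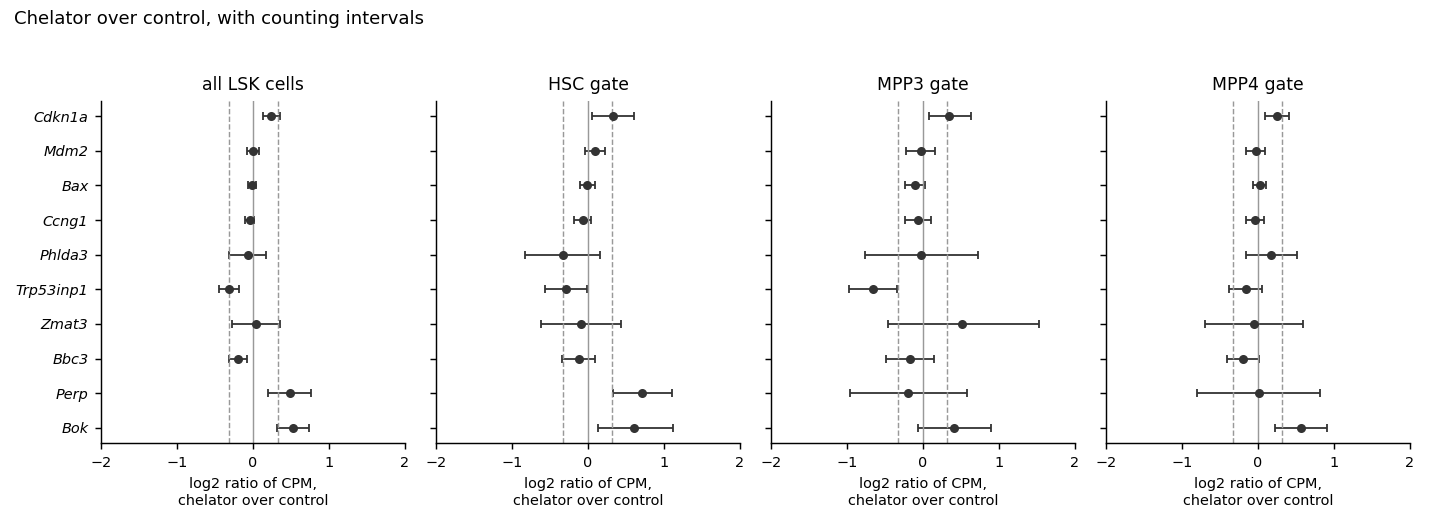
Log2 ratio of CPM, chelator over control, for each gene in all LSK cells and in the HSC, MPP3 and MPP4 gates; bars are exact conditional binomial 95% intervals and dashed lines mark 25% higher and 20% lower. Bok (0.52 in all LSK cells) and Perp (0.48) lie to the right of the window, whereas Mdm2 and Bax sit at 0.

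The genes differed by more between cells of different cell-cycle score than between the pools. The scores came from 42 S-phase and 52 G2/M-phase genes, none of them among the 10. A score sums RNA counts, to which free RNA also adds, and is not taken as a measure of division; with each cell thinned to 5000 UMIs, 46.9% of chelator and 44.3% of control cells had a score above 0. With the 1.5-fold rule in both pools, 7 of the 10 genes differed between LSK cells with a score above 0 and the others: Bok and Cdkn1a were higher and Ccng1, Trp53inp1, Zmat3, Bbc3 and Perp were lower, where 10.7% of the 12363 genes measured were higher and 16.2% lower. Mdm2, Bax and Phlda3 lay inside the fold.

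Bok was highest in S-scored cells. In LSK cells led by the S score it stood at 13.7 CPM in the chelator pool (338 UMIs) and 9.40 CPM in the control pool (212 UMIs). In cells led by the G2/M score it stood at 2.55 and 2.95 CPM, and in cells with neither score above 0 at 2.26 and 1.32 CPM. S-scored cells thus held the most Bok in both pools, and G2/M-scored cells had more than those with neither score in the control pool, while in the chelator pool their intervals overlapped. Within the HSC gate the levels were 15.1 and 9.14 CPM in S-scored cells, 4.63 and 5.01 CPM in G2/M-scored cells and 1.63 and 1.35 CPM in the others. S-scored cells lay above the others in both pools. The G2/M levels there rested on 9 and 11 UMIs. Their interval met that of cells with neither score in the chelator pool and that of S-scored cells in the control pool. In the MPP4 gate the S-scored cells again stood apart, at 13.2 and 9.26 CPM, against 2.56 and 2.32 CPM for G2/M and 2.87 and 1.70 CPM for neither. S-scored cells of the HSC gate thus held Bok at a level like that of S-scored cells of the MPP4 gate, whereas the whole gates leaned towards MPP4.

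Bbc3, Trp53inp1, Perp, Ccng1 and Zmat3 were lower in cycle-scoring cells. Bbc3 stood at 10.8 CPM in cells with a cycle score above 0 and 24.8 CPM in the others in the chelator pool, and at 12.1 and 27.7 CPM in the control pool. Its log2 ratios, -1.20 (-1.38 to -1.03) and -1.19 (-1.36 to -1.02), were nearly equal in the pools. Trp53inp1 stood at 9.17 and 17.9 CPM in the chelator pool and at 10.3 and 23.0 CPM in the control pool, lowest in S-scored cells at 7.78 and 7.32 CPM. Perp stood at 2.35 and 6.61 CPM in the chelator pool and at 2.15 and 3.85 CPM in the control pool. Ccng1, at 47.5 and 73.9 CPM and at 47.9 and 75.8 CPM, was as low in S-scored as in G2/M-scored cells. Zmat3 followed with log2 ratios of -0.67 (-1.12 to -0.21) and -1.13 (-1.62 to -0.65).

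**Figure D3:**
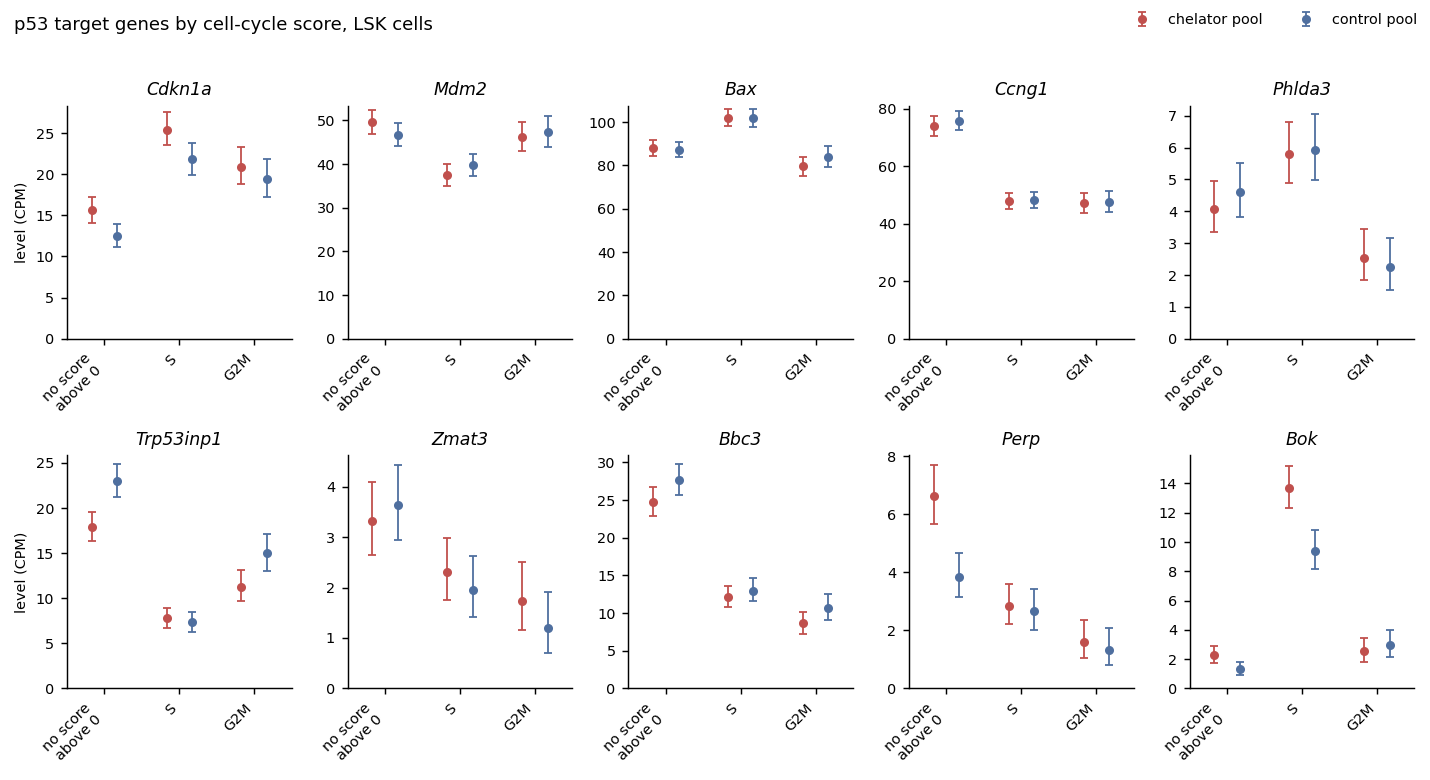
CPM of each gene in LSK cells with no cycle score above 0, led by the S score or led by the G2/M score, with the chelator pool left of the control pool and exact Poisson 95% intervals. Bok is highest in S-scored cells (13.7 and 9.40 CPM), and Bbc3, Trp53inp1, Ccng1 and Perp are highest in cells without a score above 0.

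Some of these directions were also seen within gates. In the HSC gate 2 of the 6 genes with enough UMIs passed the fold, where 23.2% of all genes did. On so few genes this count is near the share of all genes. Trp53inp1 (log2 -1.32 and -0.96) and Bbc3 (-1.21 and -1.17) were lower in cycle-scoring cells of the chelator and control pools. Perp in that gate leaned the same way (-1.33 and -0.79), with too few UMIs for a call. In the MPP4 gate 4 of 8 passed, against 17.3%: Cdkn1a (0.80 and 0.86) and Bok (1.63 and 1.91) were higher, and Trp53inp1 (-1.13 and -1.11) and Bbc3 (-1.38 and -1.32) were lower. Cdkn1a had opposite signs in the gates: cycle-scoring cells of the HSC gate held 11.1 CPM and the others 15.4 CPM in the chelator pool (log2 -0.48, -0.89 to -0.086), and 9.50 and 11.9 CPM in the control pool (-0.32, -0.81 to 0.16). In the MPP4 gate they held 33.5 and 19.3 CPM in the chelator pool, and 29.0 and 15.9 CPM in the control pool.

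The chelator values were repeated within the cycle classes. Bok remained above control in cells with a score above 0 (9.29 and 6.91 CPM, log2 0.43, 0.19 to 0.66) and in the others (2.26 and 1.32 CPM, 0.77, 0.14 to 1.42). Of the cells with a score, those led by S were above control (13.7 and 9.40 CPM). Those led by G2/M were not (2.55 and 2.95 CPM). Perp was above control in the cells without a score (6.61 and 3.85 CPM, 0.78, 0.42 to 1.15), and in the cycle-scoring cells it stood at 2.35 and 2.15 CPM (0.13, -0.31 to 0.58). In HSC-gate cells without a score Perp reached 10.8 CPM in the chelator pool and 6.11 CPM in the control pool, a log2 ratio of 0.82 (0.39 to 1.26). Trp53inp1 stood at -0.16 (-0.37 to 0.045) in cycle-scoring LSK cells and at -0.36 (-0.54 to -0.18) in the others. In those other cells, at 17.9 and 23.0 CPM (0.778-fold), it was past the window on the lower side.

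Values within each sex differed in part from the pooled ones. Perp was above control in Xist cells (4.92 and 2.81 CPM, log2 0.81, 0.32 to 1.30) and in cells with Y-linked transcripts (3.52 and 2.74 CPM, 0.36, -0.032 to 0.76), and in the HSC gate its log2 ratios were 0.89 (0.20 to 1.61) and 0.66 (0.13 to 1.20). Bok stood at 5.74 and 4.93 CPM with Xist (0.22, -0.19 to 0.62) and at 6.83 and 4.63 CPM with Y-linked transcripts (0.56, 0.27 to 0.86). Cdkn1a hardly differed with Xist, at 22.1 and 21.2 CPM (0.056, -0.14 to 0.25), and was higher with Y-linked transcripts, at 20.9 and 15.4 CPM (0.45, 0.28 to 0.61). Trp53inp1 (-0.31 and -0.21) and Bbc3 (-0.22 and -0.17) were on the lower side in both. Ccng1, level in the pooled cells, was higher with Xist (61.2 and 53.3 CPM, 0.20, 0.078 to 0.32) and lower with Y-linked transcripts (56.7 and 63.5 CPM, -0.16, -0.25 to -0.077). Differences between the sexes were not tested, and the number of mice of each sex is not known here.

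Within the HSC gate, Perp and Bok were set against the tags by splitting the gate at the median signal of each tag. Perp was higher above the median of Sca-1, at 11.3 CPM above and 6.48 CPM below it in the chelator pool (log2 0.80, 0.34 to 1.26) and at 9.04 and 2.36 CPM in the control pool (1.94, 1.22 to 2.70). It was also higher above the CD150 median, at 11.6 and 5.69 CPM in the chelator pool and 6.05 and 4.52 CPM in the control pool, where the interval of the log2 ratio included 0. It was lower above the CD48 median, at 6.12 and 11.4 CPM in the chelator pool and 3.49 and 7.35 CPM in the control pool. Bok leaned the other way, with 6.22 and 3.84 CPM above and below the CD48 median in the chelator pool and 4.61 and 1.84 CPM in the control pool. The share of cycle-scoring cells moved with these splits: above and below the Sca-1 median it was 6.41% and 38.6% in the chelator pool and 7.40% and 34.9% in the control pool. Its part in the splits was not tested.

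**Figure D4:**
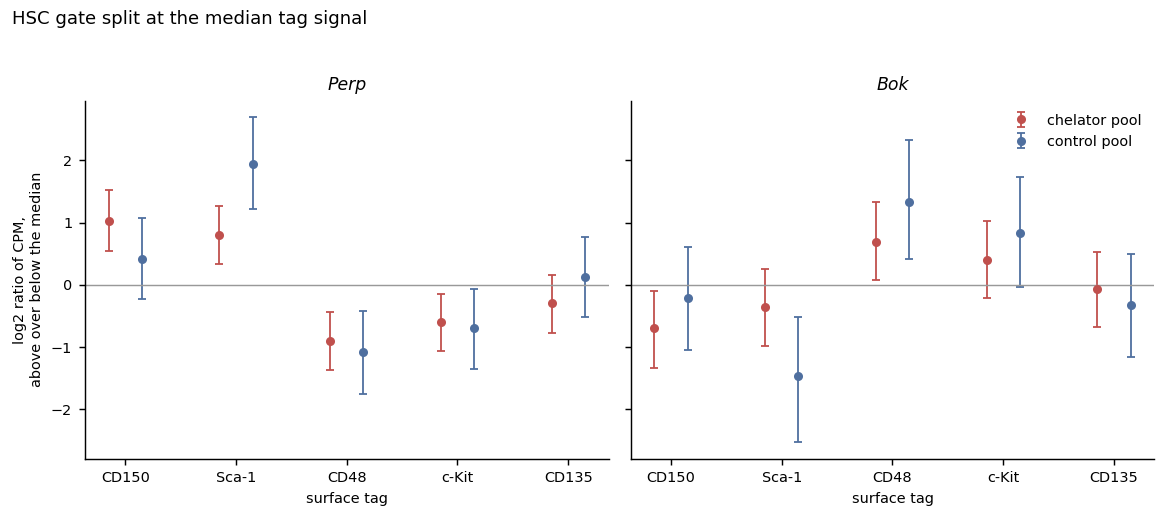
Log2 ratio of CPM in HSC-gate cells above over below the median signal of 5 surface tags, for Perp and Bok, with the chelator pool left of the control pool and 95% counting intervals. For Sca-1 the ratios of Perp are 0.80 and 1.94 and those of Bok are -0.36 and -1.47; for CD48 the signs are the other way round.

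The genes were also counted per cell. After thinning each cell to 5000 UMIs, 26.7% of chelator and 27.4% of control cells held a UMI of none of the 10 genes, 42.5% and 40.4% of 1 gene, 22.8% and 24.3% of 2 and 6.76% and 6.35% of 3. The variance of the thinned counts over their mean, which is 1 for independent counting, was 1.33 and 1.43 for Cdkn1a in the chelator and control pools. It was 1.07 and 1.06 for Perp, 1.07 and 0.982 for Bok, 1.04 and 1.01 for Bax, and 1.30 and 1.09 for Zmat3. The richest cell held 27 Cdkn1a UMIs in the chelator pool and 9 in the control pool. For Trp53inp1 the control pool stood at 1.31, with its pair of rich cells, and the chelator pool at 1.08.

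Between the pools 1.41% of all genes measured were at least 25% higher and 1.61% at least 20% lower, so low counts among other genes of the p53 network do not set them apart. Of 42 further p53 targets, 39 had at least 200 UMIs, and 0 were at least 25% higher and 1 at least 20% lower, namely Pvt1, a long non-coding RNA gene, at 8.71 and 11.2 CPM; their median log2 ratio was -0.010. Of 20 regulators of p53, 16 were measured and 0 passed the window in either direction. Setd8, one of the 20, was not found under that symbol. Mdm4, the partner of MDM2, stood at 43.9 and 42.6 CPM and the kinase gene Atm at 41.7 and 41.4 CPM. Of 19 relatives of Bax and Bok in the BCL2 family, 12 were measured and 0 passed, the highest being Bcl2l11 (BIM) at 15.5 and 13.3 CPM. Of 5 relatives of Perp, 3 were measured and 0 passed; Emp3 stood at 365 and 361 CPM.

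In the HSC gate, where 2.58% of all 11762 genes measured were at least 25% higher in the chelator pool and 2.81% at least 20% lower, few further targets passed the window. Of 38, 2 (5.26%) were higher, the receptor gene Eda2r (4.02 and 2.91 CPM, log2 0.47, -0.070 to 1.02) and the kinase gene Plk3 (5.72 and 4.24 CPM, 0.43, -0.012 to 0.88), and 1 (2.63%) was lower, the translesion polymerase gene Polh (11.1 and 14.0 CPM, -0.33, -0.60 to -0.056). Of 11 BCL2 relatives 2 were higher, the BH3-only activator gene Bcl2l11 (8.66 and 6.06 CPM, 0.52, 0.15 to 0.89) and Bcl2l14 (3.35 and 2.54 CPM, 0.40, -0.18 to 0.99), and 0 were lower. Of 16 regulators 0 passed, and of 3 PMP22 relatives 1, Emp2, was lower at 2.94 and 4.18 CPM (-0.51, -1.04 to 0.019). Of these 6 genes, the interval of the log2 ratio left out 0 for Polh and Bcl2l11.

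Between the gates, 5 of 37 further targets (13.5%) were higher in the HSC gate than in the MPP4 gate in both pools and 7 (18.9%) were lower. Of all genes, 14.7% were higher and 9.91% lower. The share higher was thus near that of all genes. The share lower was above that of all genes, on few genes, and this difference was not tested. The kinase gene Plk2 stood at 45.1 and 3.65 CPM in the HSC and MPP4 gates of the chelator pool and at 46.3 and 4.08 CPM in those of the control pool. The adenylate kinase gene Ak1 (log2 2.75 and 2.91) and the death receptor gene Fas (2.64 and 2.30) were higher as well, whereas the metalloreductase gene Steap3 (-1.49 and -1.31), the repair gene Xpc (-1.23 and -1.13) and Psrc1 (-1.09 and -0.71) were lower. Trp53 itself stood at 213 and 271 CPM in the chelator pool and at 219 and 267 CPM in the control pool, inside the fold, and of the 16 regulators the checkpoint kinase gene Chek1 alone was lower in the HSC gate (-0.89 and -0.91). Among 11 BCL2 relatives 2 were higher and 2 lower (18.2% each), on few genes. Bcl2l1 (1.04 and 1.18) and Bcl2l2 (1.09 and 0.67) were higher, and Bcl2l11 (-1.52 and -1.67) and Bid (-0.91 and -0.79) were lower. The rest, with Bcl2 at -0.19 and -0.079, were not past the fold in both pools. Of Perp's relatives, Tmem47 had 116 UMIs in the HSC gate and 3 in the MPP4 gate of the chelator pool and 115 and 2 in those of the control pool, log2 ratios of 5.54 (3.95 to 7.83) and 6.46 (4.57 to 9.52). Emp1 lay the other way, with 6 and 326 UMIs and with 3 and 321 UMIs.

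Genes with a similar course over the gates were sought among the 9783 genes with at least 1000 UMIs, by Pearson correlation of log2(CPM + 1) over the 10 sums of gate and pool, which share libraries and differ in depth. For Perp, the closest included Bsg (0.955), Tm9sf2 (0.935), Tceal8 (0.924) and Selp (0.918). Selp encodes P-selectin, a surface adhesion molecule. For Bok they were Gm49980 (0.902), Mfsd10 (0.877), Pqbp1 (0.877), Rbbp7 (0.862) and Hddc2 (0.856), lower values than those of Perp's neighbours. All are the highest of 9783 correlations over 10 sums, and how high such values run for any gene was not tested. In the MPP2 sums of the chelator and control pools Perp had 6 and 5 UMIs and Bok 11 and 8. The part of counting error in the lower values of Bok was not tested.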

How the data were processed

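Per the labels, sorted LSK cells of both conditions carried hashtag antibodies and went into a single 10x Genomics 5' loading, sequenced as RNA and as antibody tags. The authors deposited 1 matrix per condition that holds raw UMI counts (32285 genes, 126 surface tags and the hashtags) without normalization. The genome build was mm10 and the tools were Seurat 4.3.0 and Cell Ranger 7.0.0, per the submitters' processing notes; the matrix header names Cell Ranger 7.0.1. Barcode filters and hashtag assignment are not given in the sources. Of the 4037 chelator barcodes 4037, and of the 4026 control barcodes 4025, had more of their own hashtag than of the other; about 20000 cells had been sorted for each.

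Barcodes needed 500 genes or more and less than 10% of UMIs from mitochondrial genes, which removed 39 chelator and 57 control barcodes. No doublet caller was run and doublets were not removed; 52 chelator and 35 control cells had at least 2 UMIs each of Xist and of Y-linked genes and were left out as an alternative. Xist cells had at least 2 Xist UMIs and no Y-linked one; Y-linked cells had at least 1 UMI over 4 genes without Xist; 507 and 565 cells had no sex. Gates came from centred log ratios over the 126 tags with a 2-component Gaussian mixture per tag, fitted on both pools. Cycle scores were those of scanpy (50 control genes per gene, 25 expression bins).

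Counts were summed over cells and divided by gene UMIs (CPM). Sums carry exact Poisson intervals, shares exact Clopper-Pearson intervals and ratios exact conditional binomial intervals, all at 95%. With 1 pool per condition no p-value was computed. A gene passed between pools when at least 25% higher or 20% lower with 200 UMIs (100 within a gate), and between gates or cycle classes at 1.5-fold the same way in both pools with 100 UMIs in each. The calculation was tested on simulated counts. All 10 genes are reported; of each further list, the 3 highest and 3 lowest ratios could be named, and for Perp and Bok the 5 most similar genes, of which 1 is not reported here. The genes, the lists and 17 alternative settings were chosen with earlier results of these data known, and 6 more, on the cycle classes, after seeing the data. Python 3.11.15, numpy 2.4.6, scipy 1.17.1, scikit-learn 1.9.0 and scanpy 1.11.5 were used. Promoters are RefSeq's for GRCm38.p6, the assembly behind mm10, matched by symbol.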

Additional observations from a re-analysis of the deposited data

Results flagged for a closer look

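The chelator-to-control ratio of a gene had opposite signs in Xist cells and in cells with Y-linked transcripts, each by at least 0.1 on the log2 scale, in 7 of 30 cases looked at (10 genes in all LSK cells, the HSC gate and the MPP4 gate). Each pool mixes an unknown number of mice of each sex, and none of these differences between the sexes was tested. For Ccng1, which encodes cyclin G1, the log2 ratio was 0.20 with Xist and -0.16 with Y-linked transcripts in all LSK cells, a difference of 0.36, and 0.27 and -0.21 in the HSC gate, a difference of 0.48; all 4 counting intervals left out 0. Phlda3, the AKT inhibitor gene, had 0.34 and -0.22 in all LSK cells, a difference of 0.56, and 0.62 and -0.71 in the HSC gate, a difference of 1.33, on few UMIs. Zmat3 had 0.49 and -0.19 in all LSK cells, a difference of 0.68. Trp53inp1 had 0.19 and -0.50 in the HSC gate, a difference of 0.69. Bok had -0.26 and 0.81 in the MPP4 gate, a difference of -1.07, at 4.26 and 5.10 CPM in Xist cells of the chelator and control pools and 8.35 and 4.76 CPM in those with Y-linked transcripts.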

How the results depend on the processing

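Over 97 results and their alternatives, 924 of 1041 values stayed inside the counting interval or, for counts of genes, within 1.5 times. Another 110 moved beyond that, and 7 changed sign for a gene that had passed the fold. A change of sign in a gene that had not passed was not counted as a reversal. In all LSK cells, thinning to 5000 UMIs put Perp at 0.18 and Bok at 0.90 on the log2 scale; cells with Xist alone put Cdkn1a at 0.056, Perp at 0.81 and Bok at 0.22, and Y-linked cells put Cdkn1a at 0.45; cycle-scoring cells put Perp at 0.13, and cells without a score put Perp at 0.78 and Bok at 0.77. The 2 genes past the window in all LSK cells became 1 with thinning, 0 with Xist alone, 1 in cycle-scoring cells and 0 at 1.5-fold. The 4 of the HSC gate became 0 with thinning, 0 with Xist alone, 1 in cycle-scoring cells and 2 at 1.5-fold. The 3 of the MPP1 gate became 0 with thinning, 0 within either cycle class, 0 at 1.5-fold and 5 with no minimum of UMIs. Within each sex 1 gene passed there. With Y-linked cells it was Bbc3 (-0.57). With Xist it was Ccng1 (0.36), which had not passed in the whole gate, and Cdkn1a, Trp53inp1 and Bbc3 had too few UMIs. The 3 of the MPP3 gate became 1 with thinning, 1 with Y-linked cells, 0 in cycle-scoring cells and 1 at 1.5-fold. The 1 of the MPP4 gate became 0 with Xist alone, 2 with Y-linked cells, 0 without a cycle score and 0 at 1.5-fold. The 3 between the HSC and MPP4 gates became 1 with thinning and 1 without cells within 0.25 of a tag threshold. Thinning and subsets leave fewer UMIs, so fewer genes reach the minimum; the cause of the other shifts was not tested. Reversed were Phlda3 in the HSC gate (0.62 with Xist, 0.12 with both sexes weighted equally, 0.21 in cycle-scoring cells), Bok in the MPP4 gate with Xist (-0.26), Cdkn1a in the MPP1 gate with Xist (-0.12), and Trp53inp1 in the MPP1 gate with Y-linked cells (0.063) and in cycle-scoring cells of the MPP3 gate (0.21). No paired analysis was possible because there was 1 pool per condition, and no replicate could be left out for the same reason.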
